A study of Rattus norvegicus with 3 samples.

Results

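The genes of the AMP-activated protein kinase (AMPK) were described in the soleus of rats with unloaded hind limbs. They were the 7 genes that encode its subunits, Prkaa1, Prkaa2, Prkab1, Prkab2, Prkag1, Prkag2 and Prkag3, taken by gene symbol from 14217 genes that have a probe set of their own on the array. The symbols selected 13 of 31099 probe sets, and no probe set listed a subunit together with another gene. The animals were white Sprague-Dawley rats aged 8 weeks, and no allele or agent is named in the labels. Control rats had loaded limbs (label: control, time 7 days), and the other groups had the tail taped so that the body hung at an angle and the hind limbs bore no weight for 7 days (HS 7 days) or 14 days (HS 14 days). For each group 4 rats gave RNA to 1 pool, which was hybridised to 1 Affymetrix array, so there are 3 arrays in all. No value has a replicate, the spread between rats is not known, and no comparison below carries a test. In whole muscle, fewer cells of a type and less RNA per cell cannot be told apart.

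AMPK is the enzyme by which cells sense a fall in energy charge. It is a trimer of a catalytic alpha subunit, a scaffolding beta subunit that can bind glycogen, and a gamma subunit whose nucleotide sites bind AMP, ADP or ATP. Upstream kinases, chiefly LKB1 (Stk11), phosphorylate the alpha subunit, and the active kinase favours fatty acid oxidation and glucose uptake over synthesis and growth. In skeletal muscle the gamma 3 subunit is largely specific to this tissue, is most abundant in fast glycolytic fibres and assembles mainly with alpha 2 and beta 2. The soleus is a slow postural muscle in which unloading brings out fast fibre genes.

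The 3 arrays were alike in scale. A signal floor was set at a log2 value of 6.01, under which 40% of all signals lie. Between 59.1% and 61.6% of probe sets reached it, and the 3' probe set of Gapdh exceeded the 5' one by 0.20 to 0.25 on the log2 scale. The slow myosin gene Myh7 had log2 signals of 15.81, 15.84 and 15.67 in control, HS 7 days and HS 14 days, near the top of the scale. A dimmer Myh7 probe set read 11.77, 11.26 and 10.53, which is 0.50 and 1.23 below control. The only error available was technical. It was the SD of a single probe set's log2 difference, estimated from 2293 genes with a pair of probe sets, and for differences from control it ran from 0.26 at signals of 10 and above to 0.48 at signals under 8. This technical SD holds no variation between rats or pools, and having 3 arrays limits how precise any value can be.

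Of the subunit genes, Prkag3 alone stood at least 1.5-fold above control after 7 days, and Prkag3 and Prkag2 did after 14 days. None of the 7 stood 1.5-fold below control at either time. Among 11229 genes measured, meaning at or above the floor on at least 1 array, 9.04% lay above control by 1.5-fold or more at 7 days and 9.15% lay below it by as much. At 14 days 11.7% were higher and 9.25% lower by that fold. Counts of 1 of 7 and 2 of 7 rest on too few genes to be set apart from these shares. The number of subunit genes past 1.5-fold is therefore no result about the family. The median log2 difference of the 7 genes was 0.19 at 7 days and 0.01 at 14 days, beside 0.00 and 0.01 over all measured genes. With each array centred on its median instead, 61.1% rather than 49.7% of the genes past 1.5-fold at 7 days lay above control.

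**Figure D1:**
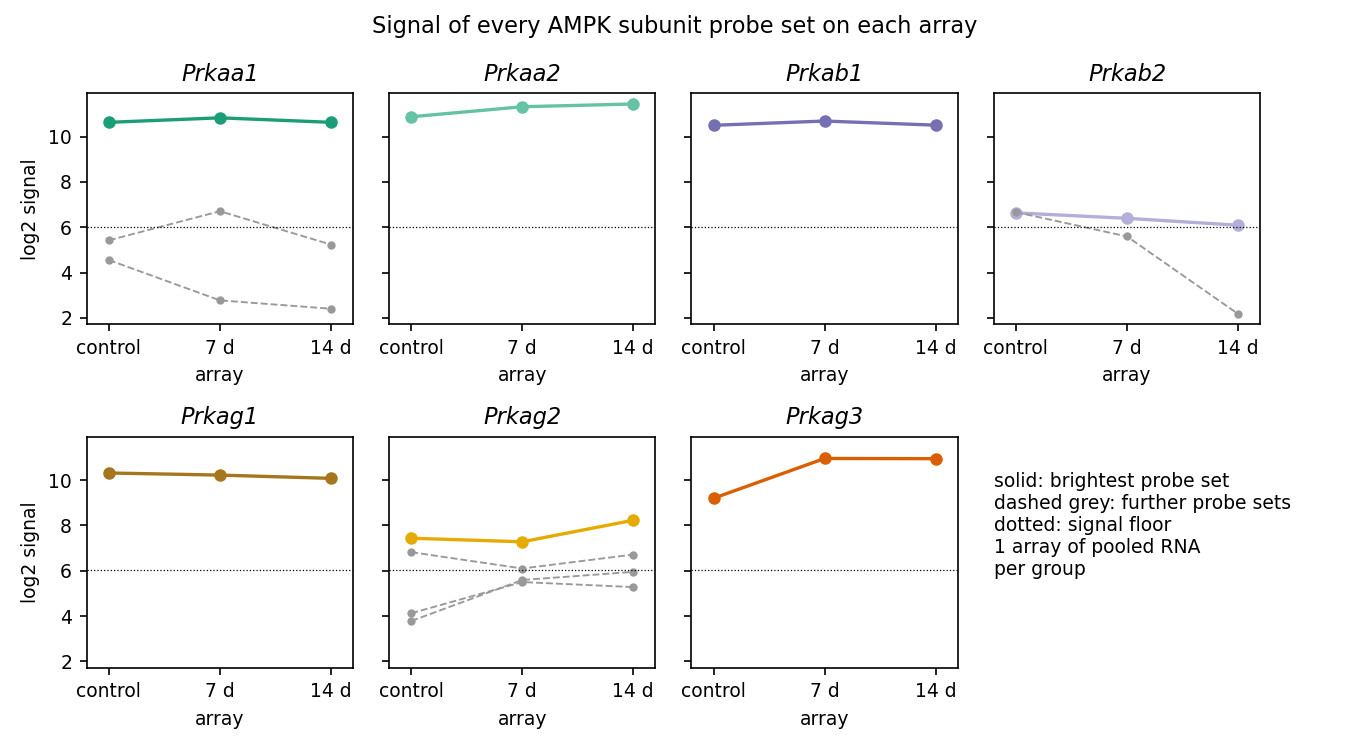
Log2 signal of each of the 13 subunit probe sets on the arrays of control, HS 7 days and HS 14 days. Coloured solid lines are the brightest probe set of a gene, dashed grey lines its further probe sets and the dotted line the floor of 6.01. Prkag3 goes from 9.19 to 10.95 and 10.94, while the brightest probe sets of Prkaa1, Prkab1 and Prkag1 stay between 10.07 and 10.82.

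The catalytic subunits differed from each other. Prkaa2, at chr5:125036945-125109010 in the GRCr8 assembly, encodes alpha 2, the catalytic form most abundant in muscle fibres. Its 1 probe set had log2 signals of 10.87 (control), 11.31 (HS 7 days) and 11.43 (HS 14 days). Both suspended arrays were above control, by 0.44 and 0.56 on the log2 scale, or 1.36-fold and 1.48-fold, just short of 1.5-fold. These differences were 1.67 and 2.02 times the technical SD for bright probe sets, and 14.5% and 12.4% of measured genes lay as high or higher. The second week added 0.12, which is less than its technical SD of 0.20.

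Prkaa1, at chr2:55967766-56003450, encodes alpha 1, the catalytic form of most cell types. Its brightest probe set gave 10.63, 10.82 and 10.63 in control, HS 7 days and HS 14 days. The difference of 0.20 at 7 days was below the technical SD of 0.26, and at 14 days the signal was back at the control value. A further Prkaa1 probe set reached the floor on the 7-day array alone, at 6.70 against 5.42 and 5.23 on the others, which makes it at least 1.61-fold higher at 7 days. The remaining one lay under the floor on every array, so it gave no level.

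The beta subunits were lower or level. Prkab1, at chr12:46248971-46259487, encodes beta 1, and its signals of 10.49, 10.68 and 10.50 differed by no more than 0.19, within the technical SD. Prkab2, at chr2:187946008-187961615, encodes beta 2, the main scaffold of the muscle complexes. Its signals were low, at 6.63 in control, then 6.39 and 6.09 on the arrays of HS 7 days and HS 14 days. The suspended arrays thus stood below control by 0.24 and 0.54, the latter 1.46-fold and 1.15 times the technical SD of 0.47 for dim probe sets. The further Prkab2 probe set read 6.66 in control and lay under the floor on both suspended arrays, at 5.59 and 2.18. It was therefore at least 1.57-fold lower at either time, and both probe sets of the gene pointed down. At these signals, close to the floor, neither gives a firm size.

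The gamma subunits, which bind the nucleotides, spread the most. Prkag1, at chr7:131842058-131859484, encodes gamma 1, the form found in most tissues. It read 10.31, 10.22 and 10.07 on the arrays of control, HS 7 days and HS 14 days. The differences of -0.09 and -0.24 were below the technical SD.

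Prkag3, at chr9:83744385-83753629, encodes gamma 3. It read 9.19 in control, 10.95 at 7 days and 10.94 at 14 days, so both suspended arrays stood well above control and next to each other. The log2 differences were 1.76 and 1.75, or 3.38-fold and 3.35-fold, which is 6.63 and 6.25 times the technical SD. Only 25 of the measured genes were further above control at 7 days and 39 at 14 days. The array carries 1 probe set for Prkag3, so no further probe set could be set beside it.

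Compared within the same arrays, the Prkag3 difference from control exceeded that of every other subunit gene. At 7 days the excess ran from 1.31 over Prkaa2 to 1.996 over Prkab2 on the log2 scale. At 14 days it ran from 0.95 over Prkag2 to 2.29 over Prkab2, and over Prkag1 it was 1.98. The balance of gamma subunit signals therefore differed from control on both suspended arrays, in favour of gamma 3 over gamma 1.

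**Figure D2:**
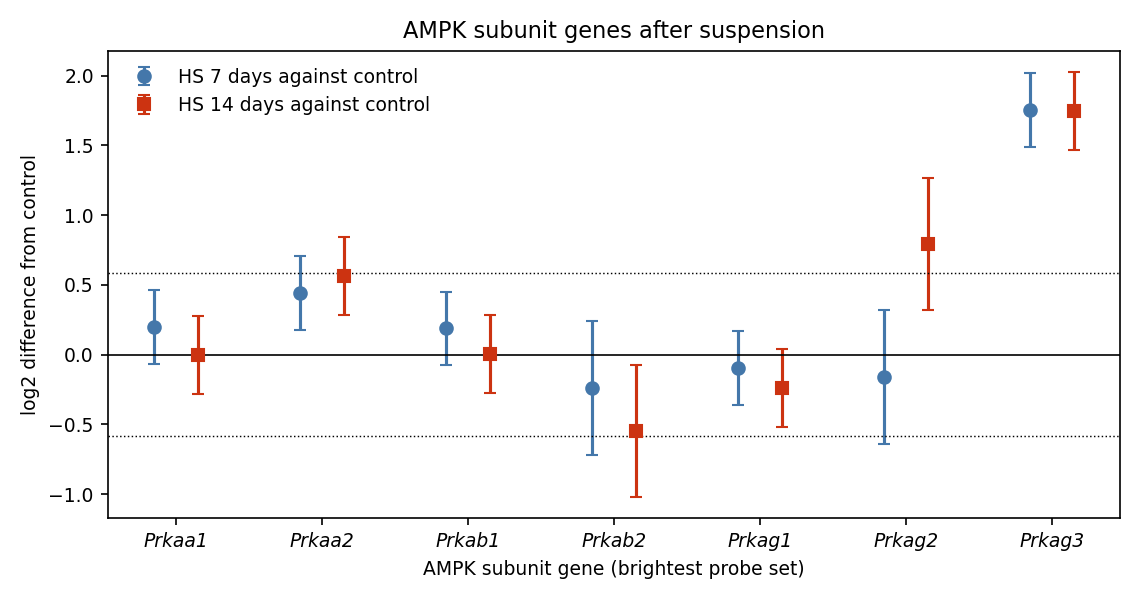
Log2 difference from control of the brightest probe set of each subunit gene after 7 days (circles) and 14 days (squares). Bars are 1 technical SD, not a spread between rats, and dotted lines mark 1.5-fold. Prkag3 stands at 1.76 and 1.75, and Prkag2 is above 1.5-fold at 14 days alone.

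Prkag2, at chr4:10744695-10985939, encodes gamma 2, the form best known from heart. Its brightest probe set read 7.43 in control, 7.27 at 7 days and 8.22 at 14 days, so the 14-day array stood above the other two. It was 1.73-fold above control at 14 days, a log2 difference of 0.79, or 1.68 times the technical SD. A further Prkag2 probe set read 6.82, 6.10 and 6.71 on the arrays of control, HS 7 days and HS 14 days, which leaves HS 14 days 0.11 below control. The probe sets therefore disagreed on the 14-day difference from control. Both stood higher at 14 than at 7 days, by 0.95 and 0.62. The other Prkag2 probe sets, 2 in number, lay under the floor on every array.

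The second week of suspension was compared by setting HS 14 days against HS 7 days. Prkag2, at 1.93-fold higher, was the 1 subunit gene past 1.5-fold, where 6.44% of all measured genes were as much higher and 4.28% as much lower. With each array centred on its median, 48.9% rather than 60.0% of such genes over the whole array were higher. The Prkag2 difference of 0.95 was 2.50 times the technical SD of 0.38. Prkag3 differed by -0.01, and the other 5 genes by -0.30 to 0.12. The Prkag3 signal had thus reached its 14-day value by day 7, as far as 1 pool per time can show.

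The promoters of Prkag3 and Prkag1 are shown because, of the gamma genes, these gave the largest and the smallest difference from control at 7 days. The windows run from 250 bases before to 50 bases after the RefSeq start in GRCr8, read 5′ to 3′ on the gene's minus strand, at chr9:83753580-83753879 and chr7:131859435-131859734. Capitals mark the E-box CANNTG, the core motif of MyoD-type factors, which reads the same on both strands.
Prkag3: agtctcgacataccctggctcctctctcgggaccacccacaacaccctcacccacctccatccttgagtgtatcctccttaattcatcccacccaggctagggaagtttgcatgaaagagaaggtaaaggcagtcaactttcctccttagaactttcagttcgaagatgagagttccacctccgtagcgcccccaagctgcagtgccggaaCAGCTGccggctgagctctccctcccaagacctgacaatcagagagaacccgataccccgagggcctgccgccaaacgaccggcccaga
Prkag1: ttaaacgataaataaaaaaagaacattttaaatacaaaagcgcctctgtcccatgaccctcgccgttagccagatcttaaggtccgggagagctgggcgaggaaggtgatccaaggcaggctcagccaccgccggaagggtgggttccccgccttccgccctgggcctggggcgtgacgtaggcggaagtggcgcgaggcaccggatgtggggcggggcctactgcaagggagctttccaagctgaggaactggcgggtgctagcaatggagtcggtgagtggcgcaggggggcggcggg
The Prkag3 window holds 1 E-box, of the form CAGCTG, whose first base lies 39 bases before the start. Of 33465 rat promoter windows of this length 72.1% hold a CANNTG and 15.1% a CAGCTG, so neither match is rare. The Prkag1 window has none. A nuclear receptor half-site, AAGGTCA, present in 4.61% of windows, and a TATAAA box, present in 14.2%, were searched on both strands and are in neither window. Among the 8 windows listed for the 7 subunit genes, that of Prkag3 had the lowest GC content, 56.7%, and the fewest CpG pairs, 12. The others ran from 61.3% to 81.3% GC and from 22 to 49 CpG pairs. The medians over all windows were 51.7% GC and 7 CpG pairs, so the Prkag3 window is closer to the typical rat promoter than those of its family. These are descriptions of the letters, and no binding was measured.

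**Figure D3:**
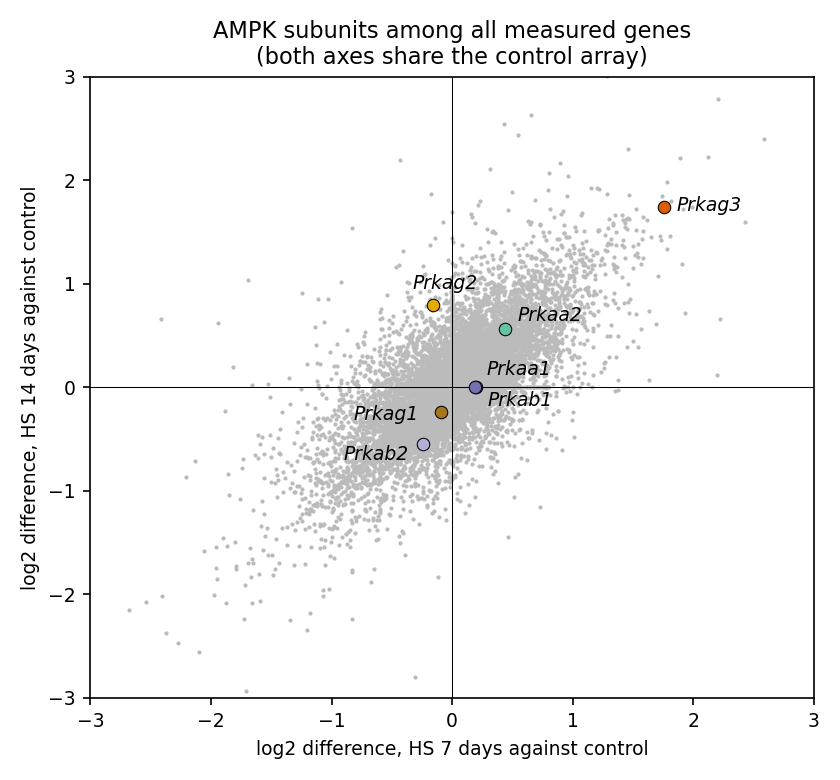
Log2 difference from control at 7 days (horizontal) and 14 days (vertical) for the measured genes in grey and the 7 subunit genes in colour. Both axes use the same control array, which by itself tilts the cloud, and 14 genes lie outside the plotted range of -3 to 3. Prkag3 lies near the upper right edge of the cloud, and Prkaa1 and Prkab1 overlap near the centre.

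Since gamma 3 belongs to fast glycolytic fibres, Prkag3 was set beside fast fibre markers. Over all measured genes 9.04% and 11.7% stood at least 1.5-fold above control at 7 and 14 days, and 9.15% and 9.25% as much below. Of 12 fast markers measured, 6 stood at least 1.5-fold above control at 7 days and 6 at 14 days, and none as much below. Their summed unlogged signal went from 211000 in control to 324000 and 420000. Myh4, the type IIB myosin, was 76.4-fold and 101-fold above control, and Actn3, the fast alpha-actinin, 17.6-fold and 80.5-fold. Apart from Actn3 at 7 days, which read 13.07, these lie near the top of the scale on the suspended arrays. Signals there may be compressed, so those folds may be too small. Between the suspended arrays 9 of the 12 fast markers differed by less than 1.5-fold. This does not give them the course of Prkag3, since the 9 include markers near the top of the scale and markers not raised from control. Pvalb, the calcium buffer of fast fibres, stood 1.85 above control at 7 days, close to the 1.76 of Prkag3, yet 5.45 at 14 days, and Mybpc2 went from 2.48 to 5.29. The other 3 markers, Actn3, Pvalb and Mybpc2, were at least 1.5-fold higher at 14 than at 7 days. Atp2a1, the calcium pump of fast fibres, and Myoz1, a fast Z-disc protein, were among the 9 within 1.5-fold, at 0.98 and 1.27 and at 1.29 and 1.40 above control. Not every fast marker was higher: 11 of the 12 stood above control at 7 days and 10 at 14 days. The fast myosin Myh1 was 0.52 and 0.56 below control, and Myh2 was level, at 0.08 and -0.07. The array carries 5 probe sets for Myh1, and only the brightest, at 14.49 in control, was read. The direction of Myh1 is therefore not settled. Of 12 slow fibre markers, 2 at 7 days and 5 at 14 days were at least 1.5-fold below control, and none was as much above. At 7 days 4 of the 12 stood above control and the median difference was -0.11, whereas at 14 days all 12 were below. The summed signal of the slow markers went from 542000 to 493000 and 387000. Most of the slow markers lie near the top of the scale, where differences may be compressed. The part of the fibre type markers in the Prkag3 difference was not tested.

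**Figure D4:**
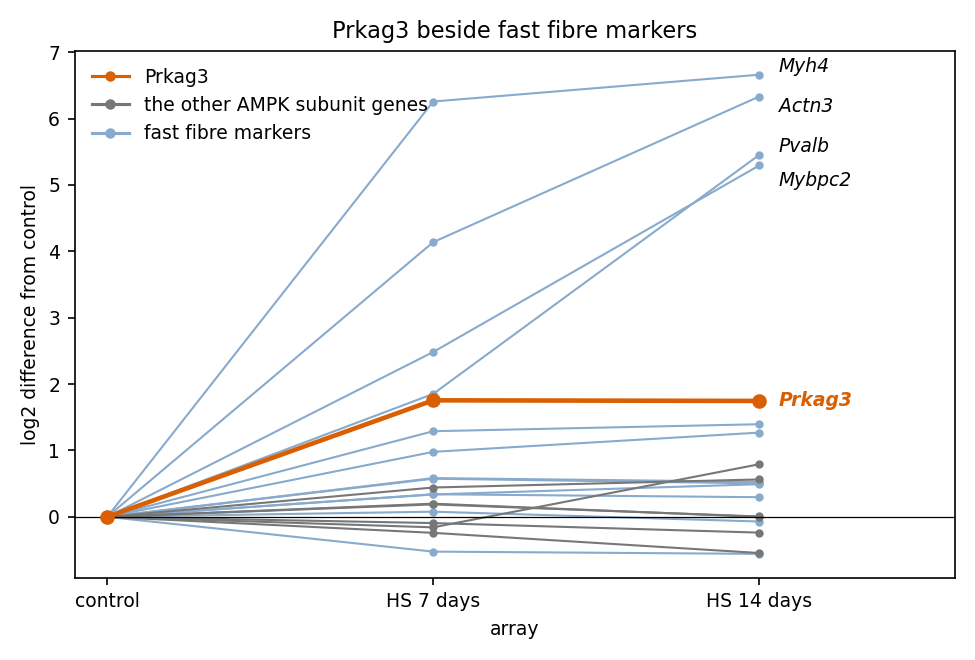
Log2 difference from control on the 3 arrays for Prkag3 (orange), the other subunit genes (grey) and 12 fast fibre markers (blue). Prkag3 is flat between 7 and 14 days at 1.76 and 1.75, whereas Pvalb goes from 1.85 to 5.45.

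Markers of other cells were set beside the subunits because alpha 1 and gamma 1 are made by most of them. The shares of all measured genes past 1.5-fold were 9.04% higher and 9.15% lower at 7 days, and 11.7% and 9.25% at 14 days. Macrophage markers were higher, 4 of 11 past 1.5-fold at each time and none as much lower, with summed signals of 5950, 8990 and 8640 on the 3 arrays. Endothelial markers had none of 8 past 1.5-fold in either direction, with sums of 8260, 7650 and 8880. The 7 fibroblast markers had 2 at 7 days and 3 at 14 days past 1.5-fold, all higher, and a sum that went from 82200 to 98800 and 116000. Of 5 adipocyte markers measured, 3 and 2 were higher by that fold, with list sums of 23100, 31100 and 22300. Smooth muscle markers had 1 of 6 lower at 7 days and none past 1.5-fold at 14 days, with sums of 8890, 7540 and 8770. All 3 Schwann cell markers measured were higher by that fold at 14 days, with list sums of 7090, 9580 and 13700. Of 3 red blood cell markers none was past 1.5-fold at 7 days and 1 was lower at 14 days, with sums of 20900, 24900 and 18500. Of 2 satellite cell markers 1 was higher at each time and the other lower at 7 days, and all 4 lymphocyte markers on the array lay under the floor. Prkaa1 and Prkag1, at 0.20 and -0.09 at 7 days and 0.00 and -0.24 at 14 days, stayed within the technical SD. The part of these cells in the subunit signals was not tested.

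The rest of the pathway was followed through 10 lists of 102 genes, of which 93 had a probe set of their own and 88 were measured. At 7 days 13 of the 88 stood at least 1.5-fold above control and 12 below, and at 14 days 6 above and 18 below. These are 14.8% and 13.6% at 7 days, and 6.82% and 20.5% at 14 days. Over all measured genes the shares were 9.04% and 9.15% at 7 days and 11.7% and 9.25% at 14 days. The medians over the 88 genes were 0.01 and 0.00 on the log2 scale.

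The kinases that switch AMPK on were near control as a list. Of 8 upstream kinases and scaffold genes none was 1.5-fold higher, beside 9.04% and 11.7% over all measured genes at 7 and 14 days. At 7 days 2 were lower and at 14 days 1, beside 9.15% and 9.25% over all measured genes. The list medians were 0.11 and 0.00. Camkk2, the calcium-dependent AMPK kinase, read 7.84, 7.65 and 6.92 on the arrays of control, HS 7 days and HS 14 days, which is 1.89-fold below control at 14 days. A dimmer Camkk2 probe set went the other way, from under the floor to 6.83, so the direction is not settled. Camkk1 was 1.64-fold lower at 7 days, and Stradb, a pseudokinase partner of LKB1, was 1.75-fold lower at 7 days and 0.18 above control at 14 days. Strada, the other partner, stood 0.36 and 0.50 above control. Stk11 reached the floor on the 7-day array alone, so its course cannot be read. The folliculin complex and sestrins, which act between nutrient sensing and AMPK, had 2 of 6 genes lower at each time. Flcn, encoding folliculin, read 11.43, 10.82 and 10.83, or 1.53-fold and 1.52-fold lower. Its partner Fnip1 was 0.42 and 0.70 lower, the latter 1.63-fold, and a further Fnip1 probe set gave -0.70 and -0.32. Sesn3 was at least 1.62-fold lower at 7 days and Sesn2 1.5-fold higher, both at low signals.

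Among protein phosphatases with a reported action on AMPK, 2 of 10 were lower at 7 days and 3 at 14 days, and none was higher. Over all measured genes 9.15% and 9.25% were as much lower and 9.04% and 11.7% as much higher, so in 10 genes these counts say little. Ppm1b read 13.43 in control, 12.64 at 7 days and 12.46 at 14 days, and its further probe sets were also lower on both suspended arrays. Ppp2ca, a catalytic subunit of phosphatase 2A, was 0.21 and 0.78 lower, the latter 1.72-fold. Ppp2r1a, the scaffold of that enzyme, was 0.66 and 0.70 lower. However, a dimmer Ppp2r1a probe set, under the floor in control, was higher by at least 0.89 and 0.37. Ppm1f stood 0.44 and 0.58 below control, short of 1.5-fold.

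Genes listed as direct substrates that handle lipids split, and whether AMPK acts on each of them directly was not tested here. Of 7 measured, 1 was higher and 2 lower at 7 days, and 1 was higher and 3 lower at 14 days. The shares over all measured genes were 9.04% and 9.15% at 7 days and 11.7% and 9.25% at 14 days. Plin5, a lipid droplet protein of oxidative muscle, read 10.59 in control, 9.76 at 7 days and 8.82 at 14 days, 1.77-fold and 3.40-fold lower. Mlxipl, the carbohydrate-responsive factor ChREBP, was 1.87-fold and 2.01-fold lower. Gpam, the first enzyme of glycerolipid synthesis, was 1.42-fold above control at 7 days and 2.08-fold below at 14 days. Its further probe set gave -0.29 and -0.77, so the probe sets agree on day 14 alone. Srebf2, a sterol regulator, was 1.61-fold and 1.39-fold higher. Acaca, the cytosolic acetyl-CoA carboxylase, was 0.28 and 0.20 higher, near the technical SD. Acacb, the mitochondrial form and a classic muscle substrate, was under the floor on every array.

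Of 7 substrates that handle glucose, 2 were higher at 7 days and 3 at 14 days, with 1 lower at 14 days. Of all measured genes 9.04% and 11.7% were at least 1.5-fold higher at 7 and 14 days, and 9.15% and 9.25% as much lower. The list medians were 0.09 and 0.25. Pfkfb3, which makes the activator of phosphofructokinase, read 8.10 in control, 9.17 at 7 days and 9.50 at 14 days, 2.11-fold and 2.64-fold above control. Tbc1d4 (AS160), which holds back GLUT4 until phosphorylated, was 1.55-fold and 1.56-fold higher, and its further probe set was higher by 0.50 and 0.51. Its paralogue Tbc1d1 stood 0.35 below control at 7 days and 0.61 above at 14 days. A dimmer Tbc1d1 probe set reached the floor at 7 days alone, at 6.39, so the 7-day direction is not settled. Pfkfb2 was level at 7 days and at least 1.80-fold lower at 14 days. A further Pfkfb2 probe set was lower at both times, by at least 0.64 and by 0.63 on the log2 scale. GLUT4 itself, Slc2a4, differed by 0.15 and 0.10 at a control signal of 13.38.

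Of 8 substrates in growth and autophagy, 2 were higher at 7 days and 1 at 14 days, and none was lower. Among all measured genes 9.04% and 11.7% were as much higher and 9.15% and 9.25% as much lower, also the background for the transcriptional substrates below. Eef2k, the kinase that slows translation elongation, read 9.11 in control, 9.90 at 7 days and 10.12 at 14 days, 1.73-fold and 2.02-fold higher. A pair of further Eef2k probe sets was also higher on both suspended arrays. Foxo3, a driver of atrophy genes, was 1.53-fold higher at 7 days and 0.25 below control at 14 days. Mtfr1l and Rptor, the mTORC1 scaffold, stood below control by 0.28 and 0.56 and by 0.55 and 0.42. Of 6 transcriptional substrates, 1 was higher and 1 lower at 7 days, and 1 was lower at 14 days. The coactivator Ppargc1a read 10.43, 10.11 and 9.59, and its further probe sets, 2 in number, were lower at both times too. The 14-day array was 1.80-fold below control. Hdac4, at low signals, was 1.84-fold higher at 7 days and 0.52 higher at 14 days, and Crtc2 was 1.57-fold lower and then 0.23 lower. Hdac7 stood 0.06 and 0.44 below control.

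Genes that AMPK activation is known to raise in muscle had the largest median difference between the times of the 10 lists, -0.37 for HS 14 days against HS 7 days. Of 16 measured, 4 were at least 1.5-fold higher and 1 lower at 7 days, whereas 1 was higher and 6 were lower at 14 days, and their median went from -0.09 to -0.47. All measured genes gave 9.04% higher and 9.15% lower at 7 days, and 11.7% and 9.25% at 14 days. Fbxo32 and Trim63, the ubiquitin ligases of atrophy, were 2.40-fold and 1.88-fold higher at 7 days. Fbxo32 read 6.48 in control, close to the floor, where the technical SD is 0.48. At 14 days Fbxo32 stood 0.24 above and Trim63 0.61 below control. Pdk4, which turns off pyruvate dehydrogenase, read 14.83, 15.02 and 13.77, 2.09-fold lower at 14 days. A further Pdk4 probe set, away from the top of the scale, read 9.87, 10.30 and 7.96, a larger difference of -1.91 at 14 days. Nrf1, a regulator of respiratory genes, was 1.67-fold and 1.86-fold higher, but its dimmer probe sets did not follow.

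**Figure D5:**
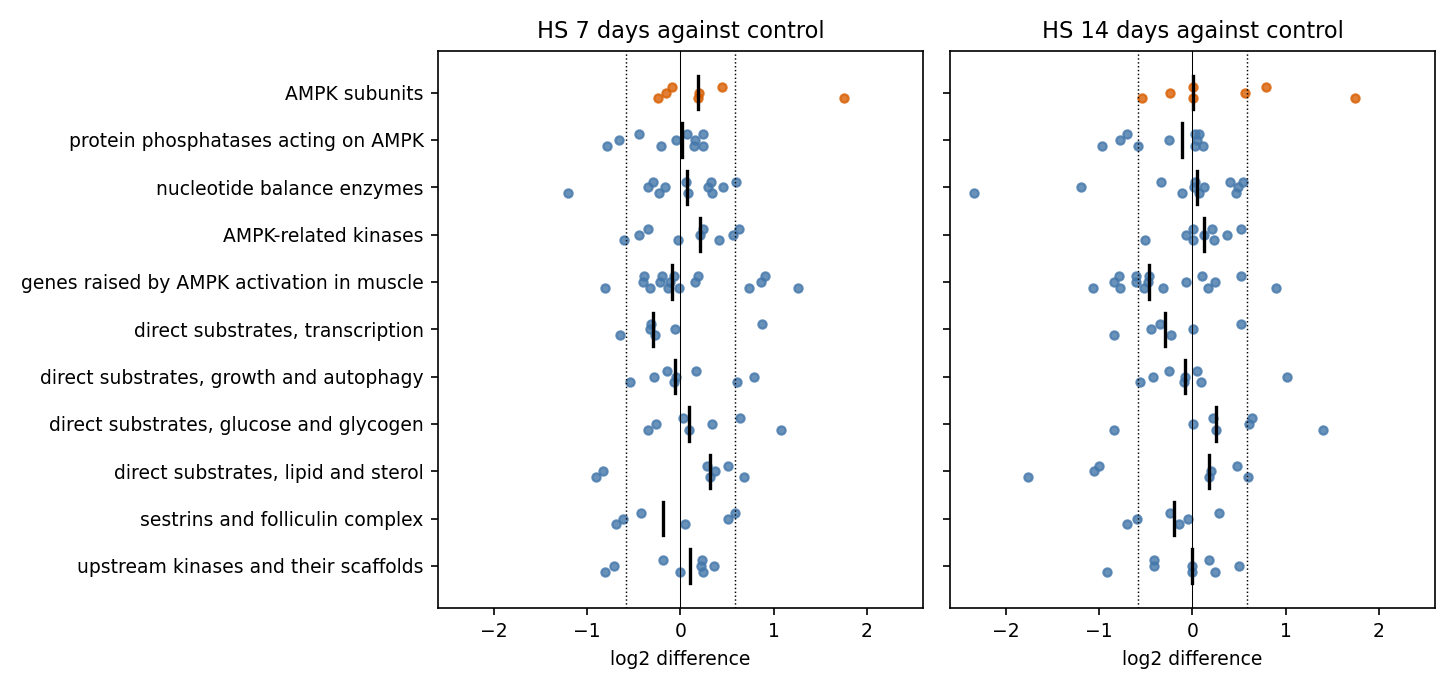
Log2 difference from control at 7 days (left) and 14 days (right) for the measured genes of the 10 pathway lists (blue) and the 7 subunit genes (orange). Each point is a gene, black bars are list medians and dotted lines mark 1.5-fold. The genes raised by AMPK activation have a median of -0.09 at 7 days and -0.47 at 14 days.

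Nucleotide balance enzymes set the AMP signal that gamma subunits read. Of 12 measured, 1 was higher and 1 lower at 7 days, and none was higher and 2 were lower at 14 days. For this list and the related kinases below, the shares over all measured genes were 9.04% higher and 9.15% lower at 7 days. At 14 days they were 11.7% and 9.25%. Ak4, a mitochondrial adenylate kinase family member, read 8.52 in control, 7.31 at 7 days and 6.17 at 14 days, 2.30-fold and 5.08-fold lower. Ampd3, an AMP deaminase, was 1.27-fold and 2.29-fold lower. Ak3 was 1.51-fold and 1.46-fold higher, with its further probe set 0.30 and 0.24 higher, and Nt5e, the surface enzyme that turns AMP into adenosine, stood 0.46 and 0.49 above control. Kinases related to the alpha subunits were near control. Of 9 measured, 1 was higher and 1 lower at 7 days and none was past 1.5-fold at 14 days. Sik3 stood 0.63 and 0.52 above control and Sik2 0.56 and 0.24, while Sik1 was 0.61 below at 7 days and 0.07 below at 14 days. Further probe sets opposed this for Sik3 at 14 days, at -0.33, and for Sik2 at 7 days, at -0.14. Hunk, at low signals, was 0.44 and 0.51 below.

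The genes whose pattern was most like that of Prkag3 were sought by the distance between pairs of log2 differences from control, which rest on 3 arrays. The nearest were Ifitm10, Afap1l1, Gpcpd1, Capn6 and Tmem233, at distances of 0.04, 0.08, 0.10, 0.16 and 0.19. Gpcpd1, a glycerophosphocholine phosphodiesterase of muscle, read 9.18, 10.91 and 11.02, and Tmem233 read 8.50, 10.12 and 10.12. Within 0.25 of Prkag3 lay 9 genes. That counts genes with differences of nearly the same size, not every gene with a large step that was level afterwards. For Prkab2, the subunit with the largest fall in signal, 927 genes lay within that distance. The nearest were Tbrg4, Etfa, Armcx3, Myd88 and Ramp2, at 0.01 to 0.02. Most measured genes differ little from control, so more genes lie near a small difference than near a large one. The radius is also below the technical SD of 0.48 for dim probe sets at 7 days. The counts for Prkag3 and Prkab2 therefore do not show how particular either pattern is.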

How the data were processed

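Rat soleus RNA was extracted with Trizol, purified and labelled with biotin for Affymetrix arrays, and the RNA of 4 rats was mixed per group, per the labels' protocols and the series design. The deposited table holds a log2 signal for each probe set, scaled by the authors to a nearly equal trimmed mean (2% off each end), as read from the values. Program and settings are not given in the sources used. The source text of the 14-day sample says 7 days, and it was taken as 14 days from its title and time entry. No 14-day control was used here.

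Control probe sets (57) were dropped. Of the other 31042, 20826 were annotated to 1 gene, 436 to several and 9780 to none, and symbols were checked through Entrez IDs (20758 matched, none changed). Each gene took the values of its brightest probe set by mean signal. Signals under the floor, the 40th percentile of all values (6.01), were set to it. A gene was measured when 1 array or more reached the floor, and a fold against a signal under it is a bound, written "at least". Differences of log2 signals were taken between arrays with no test, since no group has a replicate. Genes 1.5-fold or more apart were tallied. Technical SDs came from the 2 brightest probe sets of a gene, both at or above the floor on all arrays, in bands of signal under 8, 8 to 10 and above.

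The subunit genes and pathway lists were chosen with earlier results of these data known. Named genes were all subunits, up to 4 genes of each pathway list with the largest difference from control, 8 further genes in every case, and 5 genes nearest in pattern to the subunits of largest rise and fall. Fast fibre markers other than Myh4 were named after their values were seen. Promoter sequences are from RefSeq, GRCr8, and all 7 genes matched. The procedure was tested on simulated data. Python 3.11.15, numpy 2.4.6 and pandas 2.3.3 were used.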

Additional observations from a re-analysis of the deposited data

Results flagged for a closer look

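Prkag2 lay below control on the 7-day array and above it on the 14-day array, with log2 differences of -0.16 and 0.79. The opposite signs drew attention to it. The difference between the times was not tested, both values share the control array, and the 7-day value is below the technical SD of 0.48. A further Prkag2 probe set was below control at both times, by 0.72 and 0.11 on the log2 scale (unlike the brightest one at 14 days).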

How the results depend on the processing

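No paired analysis was possible because each group has 1 array. Median centring, quantile normalization, no floor and a floor at the 20th percentile moved none of the 21 log2 differences of the subunit genes by as much as the technical SD and left the counts past 1.5-fold as they were. Prkag3 stayed between 1.71 and 1.83 at 7 days and between 1.70 and 1.76 at 14 days over all settings. The mean of all probe sets of a gene, which averages in probe sets under the floor, moved 4 of the 21. It gave Prkaa1 log2 differences of -0.10, -0.78 and -0.68 for 7 days against control, 14 days against control and 14 against 7 days, and Prkag2 0.43 in the last. With that setting Prkag3 alone was past 1.5-fold higher at 7 days, and 1 subunit gene was as much below control. At 14 days 1 gene was higher and 2 were lower, and between the suspended arrays 0 were higher and 1 was lower. With that setting the share of all measured genes past 1.5-fold, higher or lower, was 19.9% at 7 days and 22.3% at 14 days. Between the suspended arrays it was 12.3%. The lowest Prkab2 difference from control over all settings was -0.63 at each time. At 2-fold, 1 subunit gene was higher at 14 days and 0 between the suspended arrays.

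Among pathway gene differences past 1.5-fold, the mean of all probe sets turned the sign of Foxo3 (-0.36) and Nrf1 (-0.28) at 7 days, of Ppp2r1a at 7 and 14 days (0.69 and 0.40), of Ppp2ca at 14 days (0.26), and of Camkk2 at 14 days against control (0.86) and against 7 days (0.10). Among smaller differences at 7 days it also turned Camkk2 (0.76) and Acaca (-0.36), and further small ones are not listed. Over all measured genes 18.2%, 20.9% and 10.7% were past 1.5-fold in the comparisons of 7 days, 14 days and 14 against 7 days, with no floor and no filter 32.7%, 35.7% and 27.1%, with the floor at the 20th percentile 27.0%, 29.8% and 20.1%, and at 2-fold 4.59%, 5.9% and 2.24%. Signals near the floor limit Prkab2 and Prkag2 most. The spread between rats and pools cannot be had from 1 array per group.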
